A study of Mus musculus with 6 samples.

Results

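The genes described are 9 complement components and regulators, *C3*, *C4b*, *C1ra*, *Serping1*, *Cfb*, *Cfd*, *Cd55*, *Masp1* and *C3ar1*, chosen by their symbols among the 25140 genes of a table of RNA-seq counts. All 9 were listed and 8 of them had enough counts to be tested, among 14334 genes tested in all, whereas *Cfd* did not. The libraries came from primary mouse cardiac fibroblasts (C57BL/6, adult heart, passage 1), cells that make and remodel the extracellular matrix of the heart. Cells in DMEM with 25 mM glucose were brought to 1% FBS, for 16 h by the sample labels and for 24 h by the study's methods, and then received vehicle or TGFβ at 10 ng/mL for 24 h in the same medium, with 3 libraries in each group. TGFβ is a fibrotic cytokine under which fibroblasts take on the contractile state of myofibroblasts. The study's results call the cells of this experiment MEFs (mouse embryonic fibroblasts), whereas its methods and the labels call them cardiac fibroblasts. The labels do not give the number or the sex of the animals or the vehicle, and a primary culture passaged once can still hold other cells of the heart.

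Complement is a cascade of plasma and cell surface proteins that tags targets for removal, draws in leukocytes and can lyse cells. It is started by C1 on antibodies or debris (the classical pathway), by lectins on sugars (the lectin pathway) or by slow spontaneous activation of C3 (the alternative pathway), and all of these converge on cleavage of C3. Most circulating complement comes from the liver, but fibroblasts and other stromal cells make several components themselves, and inhibitors in plasma and on membranes hold the cascade in check.

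With TGFβ, transcripts of *C3*, *C4b*, *C1ra* and *Serping1* fell to between 30.2% and 45.9% of their vehicle level, and *Cd55* fell by a much smaller amount. *Masp1*, at a low level, rose. For *Cfb* and *C3ar1* the libraries of both groups overlapped, and *Cfd* was not detectable above single counts. In the quasi-likelihood test of edgeR, adjusted over all genes tested by Benjamini-Hochberg, 6 of the 8 genes passed an adjusted p of 0.05, where 40.7% of all genes did. Of these, 5 were lower, where 20.1% of all genes were lower, and 1 was higher, where 20.5% of all genes were higher. The libraries of the groups did not overlap in 6 of the 8 genes and in 53.3% of all genes. The median log2 fold change (TGFβ over vehicle) was -1.21 over the 8 genes and -0.0013 over all genes tested. The genes were chosen with earlier results of these data known. These counts and medians therefore describe the chosen genes and do not test complement as a whole. These are changes in RNA relative to all RNA of a culture, in which fewer cells of a type and less RNA per cell cannot be told apart.

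The vehicle libraries held 31072338, 29296570 and 29331999 counts and the TGFβ libraries 27851677, 28894151 and 28641986 counts, and values are given below in this order. *Postn* and *Acta2*, which mark the treatment's effect on fibroblasts, rose by 1.55 and 1.03 on the log2 scale (adjusted p = 6.49e-05 and 6.93e-05 from edgeR). Fibroblast markers were plain in every library: *Col1a1* was at 18825.2 CPM or more. Replicates differed by more than counting noise (7.95 to 27.1 in chi-square per gene over pairs), with a biological coefficient of variation of 7.97%. In 6 of the 8 complement genes tested, the vehicle library of 29331999 counts and the TGFβ library of 28641986 counts were both the highest of their group. Both were highest at once in 7 of 8 endothelial markers and in 8 of 10 macrophage and leukocyte markers, but in 19.5% of all genes. Without either of these 2 libraries alone, 5 of the 8 complement genes were lower and 1 was higher. Without both, 5 were lower and 1 was higher as well, but *Cfb* was then not tested.

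*C3* (ENSMUSG00000024164) encodes the protein on whose cleavage all complement pathways converge. It lies on the minus strand of chr17:57203970-57228136 (GRCm38, GENCODE M21). Its counts were 61872, 73154 and 80537 with vehicle and 18138, 20954 and 25768 with TGFβ. Every TGFβ library was far below every vehicle library. In CPM (counts relative to the TMM-scaled size of the library) these were 1944, 2466 and 2700 with vehicle and 663, 750 and 904 with TGFβ. The means were 2370.2 ± 387 CPM and 772 ± 122 CPM (SD, n = 3 each). edgeR put the log2 fold change at -1.62 ± 0.15 (SE), with a 95% interval from -1.96 to -1.27 and an adjusted p of 0.000146. By mean CPM *C3* stood 24th of all genes with vehicle and 134th with TGFβ, so that it was among the most counted transcripts of untreated cells. It took between 0.0651% and 0.275% of the counts of a library. None of its 75-base windows occurred in another gene's transcripts.

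The proximal *C3* promoter is shown because C/EBP-type motifs lie close together in it. The 250 bases before the RefSeq start (GRCm38.p6, chr17:57228137-57228386, minus strand, read towards the gene) hold 3 matches to TTNNGNAA, in capitals, at 70 to 63, 58 to 51 and 45 to 38 bases before the start. Both strands were searched, and the match nearest the start reads as this motif on both.
*C3* promoter: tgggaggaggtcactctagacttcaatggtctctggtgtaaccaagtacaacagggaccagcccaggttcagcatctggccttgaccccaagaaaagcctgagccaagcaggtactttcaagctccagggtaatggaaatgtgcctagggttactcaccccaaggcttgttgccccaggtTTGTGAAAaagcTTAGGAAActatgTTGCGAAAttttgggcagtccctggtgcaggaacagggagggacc
At least 1 such match was found in 36.8% of 32851 RefSeq promoters of this length and at least 3 in 2.61%. Promoter sequence was at hand for 5 of the 9 genes, *C3*, *C1ra*, *Cd55*, *C3ar1* and *Cfd*, of which *C3* and *C1ra* held the motif. Neither the GAS motif TTCNNNGAA (in 7.02% of all promoters), the ISRE-type motif GAAANNGAA (7.13%), the NF-kB motif (7.25%) nor the SMAD-type motif AGNCAGACA (1.86%) was found in any of the 5. A match is a description of the letters, and binding was not measured here.

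Of the classical pathway, *C4b* (ENSMUSG00000073418, minus strand of chr17:34728380-34743882) encodes C4, whose large fragment attaches to surfaces and forms the C3-cleaving convertase with C2. Its counts were 1317, 1340 and 2411 with vehicle and 336, 351 and 728 with TGFβ. The highest TGFβ library, at 25.5 CPM, stayed below the lowest vehicle library, at 41.4 CPM. Mean levels were 55.8 ± 21.8 CPM and 16.8 ± 7.57 CPM (SD, n = 3 each), and *C4b* fell by 1.73 ± 0.35 (SE) on the log2 scale, at an adjusted p of 0.00575 in edgeR. The spread within groups was wide, since in each group 1 library (29331999 and 28641986 counts) had more than the others, and without both of them the log2 fold change was -1.80. Of the 75-base windows of *C4b*, 23.5% also occurred in transcripts of other genes, with its near copy *C4a* sharing the most, so reads could be split between genes. *C4a* itself was listed with 16 counts in all vehicle libraries and 15 in all TGFβ libraries.

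*C1ra* (ENSMUSG00000055172, plus strand of chr6:124512405-124523443) encodes C1r, the protease of the C1 complex that activates C1s. Counts of 2157, 2409 and 3082 were found with vehicle and of 755, 797 and 1201 with TGFβ. No TGFβ library came near the vehicle libraries: the levels were 84.1 ± 17.9 CPM and 32.8 ± 8.13 CPM (SD, n = 3 each). *C1ra* fell by 1.36 ± 0.20 (SE) on the log2 scale, with a 95% interval of the fold change from -1.82 to -0.90 and an adjusted p of 0.00127 in edgeR. Of the windows of *C1ra*, 42.4% also occurred in transcripts of other genes, with its near copy *C1rb* sharing the most. *C1rb* had 13 counts in all vehicle libraries and 3 in all TGFβ libraries. The value of *C1ra* is thus uncertain where reads could go to another gene.

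The same window of *C1ra* is given for comparison with *C3* (chr6:124512371-124512620, plus strand). It holds 2 matches to TTNNGNAA, at 72 to 65 and 29 to 22 bases before the RefSeq start, both read on the other strand. At least 2 matches occurred in 10.9% of all promoters. The RefSeq start lies downstream of the GENCODE start, so most of this stretch is within the gene as GENCODE draws it.
*C1ra* promoter: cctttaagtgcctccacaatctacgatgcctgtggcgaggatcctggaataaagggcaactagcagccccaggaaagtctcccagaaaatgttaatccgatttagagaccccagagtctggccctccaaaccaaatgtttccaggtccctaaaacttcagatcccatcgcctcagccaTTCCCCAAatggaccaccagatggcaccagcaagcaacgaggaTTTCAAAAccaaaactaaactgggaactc

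*Masp1* (ENSMUSG00000022887, minus strand of chr16:23449417-23520815) encodes a protease that starts the lectin pathway and also alternative products, which cannot be separated from it in counts per gene. It had 61, 65 and 62 counts with vehicle and 126, 97 and 76 with TGFβ. The lowest TGFβ library, at 2.67 CPM, was above the highest vehicle library, at 2.19 CPM. From 2.06 ± 0.138 CPM to 3.58 ± 0.975 CPM (SD, n = 3 each), *Masp1* rose by 0.79 ± 0.21 (SE) on the log2 scale, at an adjusted p of 0.0186 in edgeR. The gene no longer passed when the vehicle library of 31072338 counts was left out (log2 fold change 0.74, adjusted p = 0.0585 from edgeR) or the TGFβ library of 27851677 counts (0.57, adjusted p = 0.0508 from edgeR). On the opposite strand the gene's span meets *Rtp4*, with 457% as many counts, but no exon base is shared. *Rtp4* was lower with TGFβ (log2 fold change -1.12).

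*Cfb* (ENSMUSG00000090231, minus strand of chr17:34856374-34862518) encodes factor B, the protease of the alternative pathway convertase. Counts were 8, 20 and 47 with vehicle and 7, 8 and 13 with TGFβ. The groups overlapped: the lowest vehicle library, at 0.251 CPM, was below all TGFβ libraries, at 0.256, 0.286 and 0.456 CPM, and the other vehicle libraries, at 0.674 and 1.58 CPM, were above them. The log2 fold change was -1.30, with a 95% interval from -2.80 to 0.20 (adjusted p = 0.149 from edgeR), so at this depth a fall of several fold and no change were both within the error. It was -0.45 without the vehicle library of 29331999 counts, which held the 47 counts, and -1.74 without that of 31072338 counts, when the adjusted p from edgeR was 0.0261. A readthrough gene annotated on the same strand, *Gm20547*, covers 79.5% of the exon bases of *Cfb*, and a read there could belong to either.

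*Cfd* (ENSMUSG00000061780, plus strand of chr10:79890853-79892655) encodes factor D, also called adipsin, which cleaves factor B and is made mainly by fat cells. It had 0, 0 and 1 counts with vehicle and 0, 0 and 1 with TGFβ. Each group held 1 count in all, under the floor of 3 counts set here, so that no fold is given. Of the markers of fat cells, *Adipoq* was also near 0, with 0 counts over the vehicle libraries and 1 over the TGFβ libraries. *Adipoq* was not tested. The adipocyte markers that were tested, *Lpl* (log2 fold change -2.37), *Fabp4* (-0.84) and *Pparg* (-0.64), were lower with TGFβ, and these genes are expressed by other cells too.

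**Figure D1:**
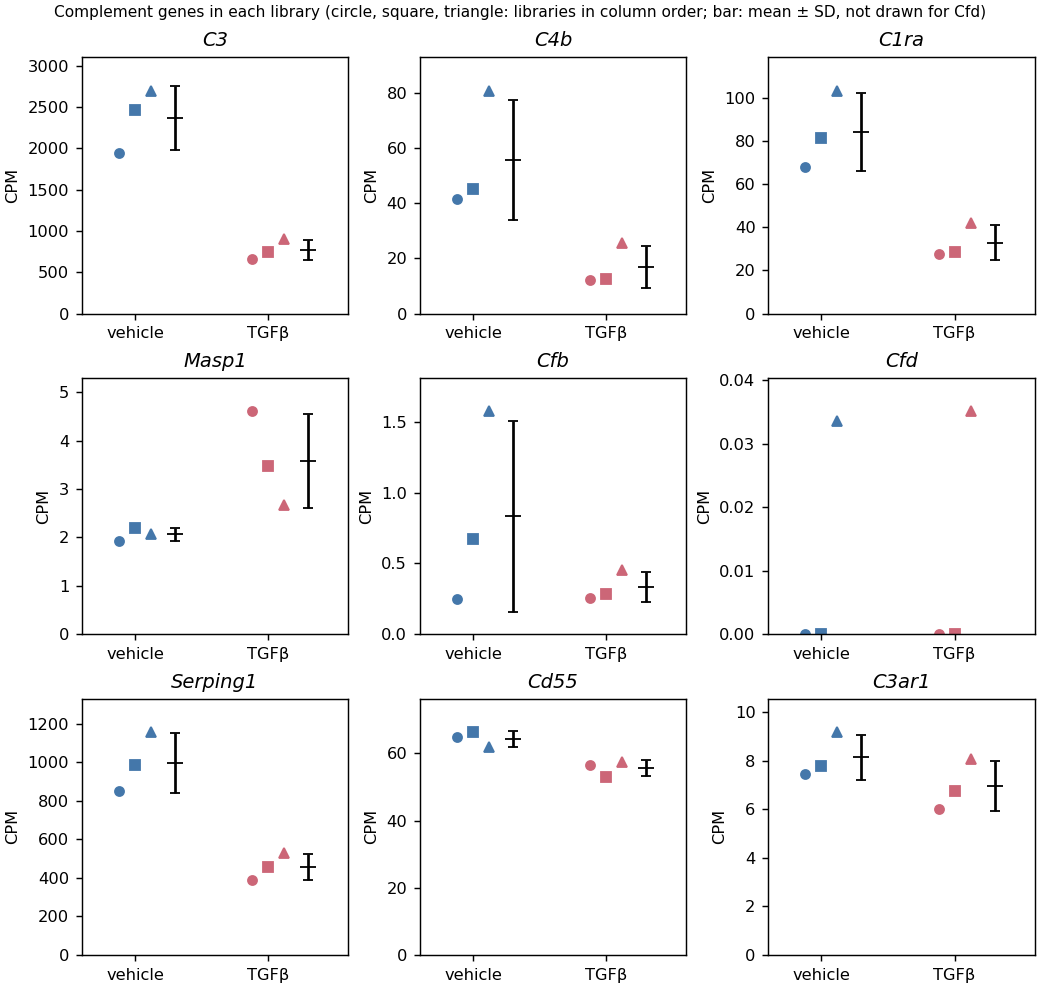
CPM (counts relative to the TMM-scaled library size; vertical axes from 0) of the 9 complement genes in each vehicle and TGFβ library, with the mean ± SD of each group as a bar beside the points (none for *Cfd*, which had 1 count in 1 library of each group). In *C3*, *C4b*, *C1ra*, *Serping1* and *Cd55* all TGFβ points lie below all vehicle points, in *Masp1* they lie above, and in *Cfb*, *Cfd* and *C3ar1* they overlap.

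Among the inhibitors, *Serping1* (ENSMUSG00000023224, minus strand of chr2:84765387-84775444) encodes the C1 inhibitor, a serpin that blocks C1r, C1s and the lectin pathway proteases. Its counts were 27020, 29167 and 34501 with vehicle and 10660, 12694 and 15035 with TGFβ. The groups were well apart, with 849 CPM in the lowest vehicle library and 527 CPM in the highest TGFβ library. From 996 ± 154 CPM to 457 ± 68.9 CPM (SD, n = 3 each), *Serping1* fell by 1.12 ± 0.14 (SE) on the log2 scale. The 95% interval of the fold change went from -1.44 to -0.80, with an adjusted p of 0.00057 in edgeR. Thus the transcript of the inhibitor and those of its classical pathway targets *C1ra* and *C1s1* were lower. That of *Masp1*, the gene of a lectin pathway protease, was higher (log2 fold change 0.79), at a low level. *Serping1* stood 86th of all genes by mean CPM with vehicle and 292nd with TGFβ.

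*Cd55* (ENSMUSG00000026399, minus strand of chr1:130439027-130462744) encodes decay-accelerating factor, a membrane protein that breaks up the C3-cleaving convertases on the cell's own surface. It had 2062, 1969 and 1845 counts with vehicle and 1548, 1476 and 1636 with TGFβ. The groups did not overlap, but lay close together, with 61.9 CPM in the lowest vehicle library and 57.4 CPM in the highest TGFβ library. *Cd55* fell by 0.21 ± 0.05 (SE) on the log2 scale, with a 95% interval of the fold change from -0.32 to -0.10 and an adjusted p of 0.00985 in edgeR, from 64.3 ± 2.30 CPM to 55.6 ± 2.42 CPM (SD, n = 3 each). This change, though past the threshold, left 86.4% of the vehicle level. Of the windows of *Cd55*, 7.55% also occurred in transcripts of other genes, with its near copy *Cd55b* sharing the most. *Cd55b* had 3 counts in all vehicle libraries and 4 in all TGFβ libraries.

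Of the receptors, *C3ar1* (ENSMUSG00000040552, minus strand of chr6:122847138-122856161) encodes the receptor for C3a, the small fragment released from C3. Counts were 237, 231 and 274 with vehicle and 165, 189 and 230 with TGFβ. The highest TGFβ library, at 8.07 CPM, was above 2 of the vehicle libraries, at 7.45 and 7.79 CPM. The log2 fold change of -0.23 had a 95% interval from -0.53 to 0.08 and an adjusted p of 0.213 from edgeR, and over the alternatives the adjusted p ran from 0.0669 to 0.502.

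Levels between genes were compared per kilobase of exon (CPM per kilobase). With vehicle, *C3* at 461 ± 75.2 and *Serping1* at 429 ± 66.3 led (SD, n = 3 each), and their ranges overlapped. *C1ra* followed at 28.2 ± 6.02, then *Cd55* at 13.3 ± 0.474 and *C4b* at 9.80 ± 3.82, which overlapped each other. *C3ar1* (1.89 ± 0.214), *Cfb* (0.295 ± 0.239) and *Masp1* (0.210 ± 0.0140) were low, the last of these within the range of *Cfb*. With TGFβ the same pair led in the other order, *Serping1* at 197 ± 29.6 and *C3* at 150 ± 23.7, again with overlapping ranges. *Cd55* (11.5 ± 0.498) and *C1ra* (10.99 ± 2.73) overlapped as well, with *C4b* below them at 2.95 ± 1.33. *Masp1* (0.364 ± 0.0991) then lay above *Cfb* (0.118 ± 0.0382). By this measure the order of means changed in 3 pairs, *C3* with *Serping1*, *C1ra* with *Cd55* and *Cfb* with *Masp1*. The length used is that of all exon bases of a gene, 2325 for *Serping1* and 9833 for *Masp1*. Their longest transcripts are shorter, at 1768 and 5345 bases. Whether *C3* and *Serping1*, or *Cfb* and *Masp1*, change order therefore depends on the length used. These orders are descriptions, with no test between genes.

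**Figure D2:**
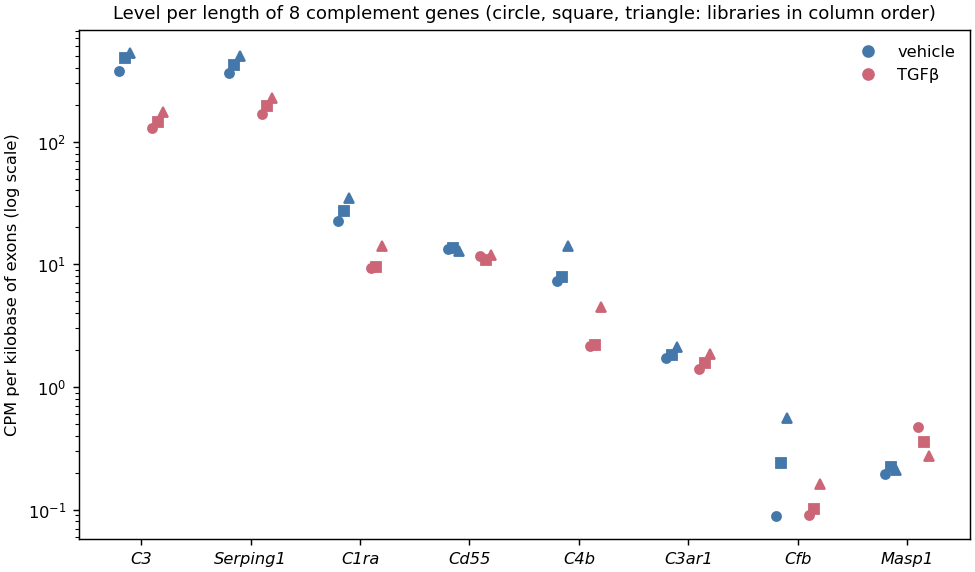
CPM per kilobase of exons (log axis) of the 8 complement genes tested, in each vehicle and TGFβ library. *C3* and *Serping1* lie above all others in both groups, and *Cd55* lies below *C1ra* in every vehicle library but within its range with TGFβ.

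Ratios of counts within a library, which do not depend on its total, were compared after the levels had been seen. The ratio of *C3* to *Serping1* was 2.29, 2.51 and 2.33 with vehicle and 1.70, 1.65 and 1.71 with TGFβ. It was tight in both groups and lower in every TGFβ library, by 0.49 on the log2 scale. That of *C3* to *Cd55* went from 30.0, 37.2 and 43.7 to 11.7, 14.2 and 15.8. It too was lower in every TGFβ library, so that *C3* counts were lower relative to the counts of both inhibitors. Ratios of *C1ra* to *C1s1*, *C1ra* to *Serping1* and *C4b* to *C1ra* overlapped between groups, with log2 differences (TGFβ minus vehicle) of 0.16, -0.24 and -0.39. Two-sided exact permutation tests gave p = 0.1 (the lowest value possible with 3 libraries a group) for each of the ratios that did not overlap, and the smallest adjusted p over the 5 ratios was 0.25.

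**Figure D3:**
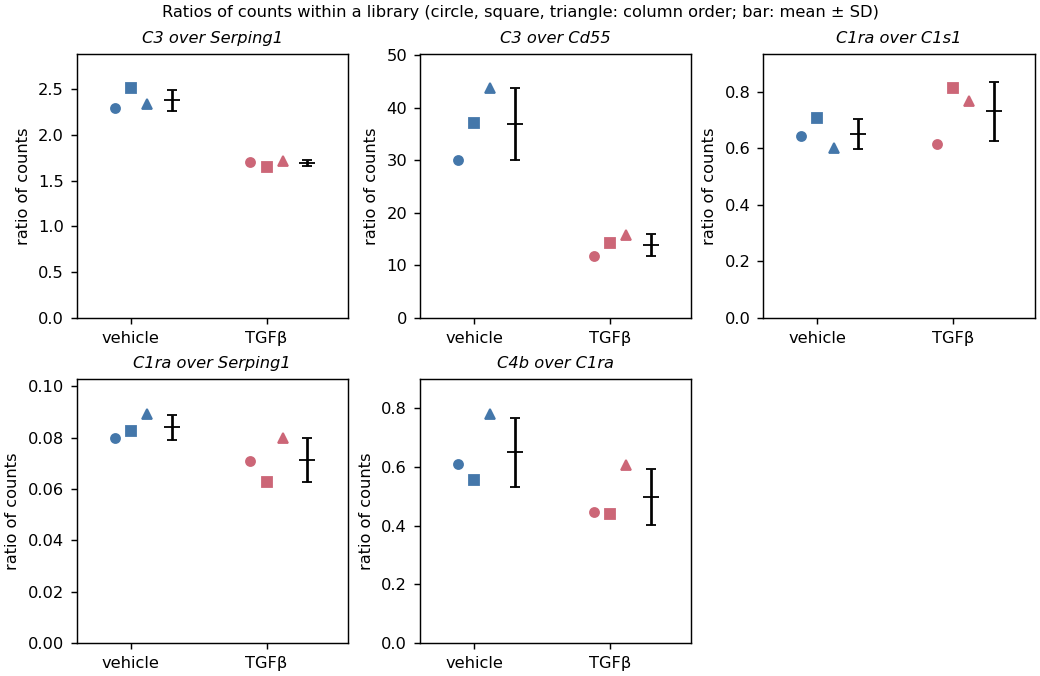
Ratio of counts of 5 pairs of complement genes in each library (vertical axes from 0; bars, mean ± SD, n = 3). The ratios of *C3* to *Serping1* and *Cd55* are lower in all TGFβ libraries, and the groups overlap in the other ratios.

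The rest of the complement system was taken from a list of 50 further genes, also drawn up with earlier results of these data known. Of these genes, 42 were listed and 28 tested. By edgeR, 11 of these were lower (20.1% of all genes were), 3 were higher (20.5% of all genes were) and 14 did not pass. *C8g* and *Vsig4*, described below, reached the filter on low counts in 1 group only and so had to differ. Without them 10 of 26 were lower and 2 were higher. The 10 still hold *C7* and *Csmd1*, which reached the filter's minimum of 0.344 CPM in 3 vehicle libraries but in 1 and 2 TGFβ libraries. Both were thus tested only because of the vehicle libraries, where they were higher. The groups did not overlap in 15 of the 28, a share close to the 53.3% of all genes. The median log2 fold change was -0.45 over the 28 and over the 26, against -0.0013 over all genes tested. Both medians take in *C7*, *Csmd1* and *Susd4*. *Susd4* (log2 fold change -0.79, not called) also reached the filter's minimum in 3 vehicle libraries but in 1 TGFβ library. These medians are therefore not free of the filter.

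Among recognition and initiation genes, 5 of 8 tested were lower by edgeR (20.1% of all genes were). None was higher by edgeR (20.5% of all genes were), DESeq2, limma-voom or at an unadjusted p of 0.05 (0 in each case). *C1s1*, which encodes the C1s protease activated by C1r, lies beside *C1ra* on chromosome 6, and had 3352, 3402 and 5116 counts with vehicle and 1230, 982 and 1568 with TGFβ. It fell by 1.53 ± 0.22 (SE) on the log2 scale, at an adjusted p of 0.00108 in edgeR. Of its windows, 14.7% occurred in transcripts of other genes, with the near copy *C1s2* sharing the most. *C1rl*, the C1r-like protease gene on the other side of *C1ra*, fell by 0.72 on the log2 scale. *C2*, the partner of C4 in the classical convertase, had 43, 42 and 60 counts with vehicle and 19, 14 and 18 with TGFβ. It was at 1.59 ± 0.364 CPM and 0.609 ± 0.0985 CPM (SD, n = 3 each, log2 fold change -1.38). It shared 55.6% of its windows with other genes, *Gm20547* the most. The span of *C2* also meets *Zbtb12* on the opposite strand, with 639% as many counts (log2 fold change of *Zbtb12* -0.62). *Colec11*, a soluble lectin, and *Colec12*, a scavenger receptor with a lectin domain, fell by 1.08 and 1.35 on the log2 scale. The genes that did not pass were those of the C1q chains, singled out after their values were seen. Log2 fold changes were 0.01 for *C1qa* (95% interval from -0.26 to 0.28), -0.04 for *C1qb* (from -0.49 to 0.40) and 0.04 for *C1qc* (from -0.40 to 0.47).

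Of the terminal pathway, whose proteins form the lytic pore, 2 of 3 genes tested were lower (20.1% of all genes were), both at low counts. *C7* had 16, 28 and 36 counts with vehicle and 8, 11 and 7 with TGFβ (log2 fold change -1.49), a call lost in 5 of 12 alternatives. It reached the filter's minimum in 3 vehicle libraries and 1 TGFβ library. *C8g* had 13, 25 and 16 counts with vehicle and 3, 4 and 6 with TGFβ (-1.91), and it reached the filter in the vehicle libraries only. Both entered the test through the group where they were high, so this count cannot speak for the pathway. The span of *C8g* also meets *Fbxw5* on the opposite strand, with 1.03e+04% as many counts, and the use of strand in counting is not given.

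Of the plasma regulators, 2 of 4 tested were lower (20.1% of all genes were). *Cfi*, the protease that cuts C3b and C4b, had 380, 395 and 523 counts with vehicle and 137, 200 and 239 with TGFβ. No library of one group reached the other, and *Cfi* fell by 1.05 ± 0.20 (SE) on the log2 scale, at an adjusted p of 0.00481 in edgeR. *Cfp*, properdin, which stabilizes the alternative convertase, fell by 1.06 on that scale. Thus a gene whose product promotes the cascade fell along with inhibitors.

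On membranes, 2 of 5 regulators were lower (20.1% of all genes were) and 1 was higher (20.5% of all genes were). *Csmd1*, a large membrane protein with complement control domains, had 57, 72 and 105 counts with vehicle and 6, 17 and 11 with TGFβ. It fell by 2.65 ± 0.38 (SE) on the log2 scale (edgeR adjusted p = 0.00121), the largest fall of the complement genes tested. *Csmd1* reached the filter's minimum in 3 vehicle but only 2 TGFβ libraries, so it was tested through the group where it was high. *Thbd*, thrombomodulin, which also limits clotting, fell by 0.52 on the log2 scale, and this call was lost in 3 of 13 alternatives. *Cr1l*, which encodes the rodent regulator Crry and acts on the convertases as *Cd55* does, was at 67.6 ± 1.33 CPM in vehicle libraries and 75.2 ± 3.82 CPM in TGFβ libraries (SD, n = 3 each). Its rise of 0.15 on the log2 scale was lost in 8 of 13 alternatives, DESeq2 among them.

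Of 8 further receptors and binding proteins none was lower by edgeR (20.1% of all genes were). The same held by DESeq2, by limma-voom and at an unadjusted p of 0.05 (0 in each case). By edgeR 2 were higher, which is near the share of all genes (20.5%). *Vsig4*, a macrophage receptor for fragments of C3, had 4, 3 and 5 counts with vehicle and 14, 10 and 18 with TGFβ (log2 fold change 1.90), and reached the filter in the TGFβ libraries only. *C1qbp*, which binds C1q but is mainly a mitochondrial protein, rose by 0.36.

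**Figure D4:**
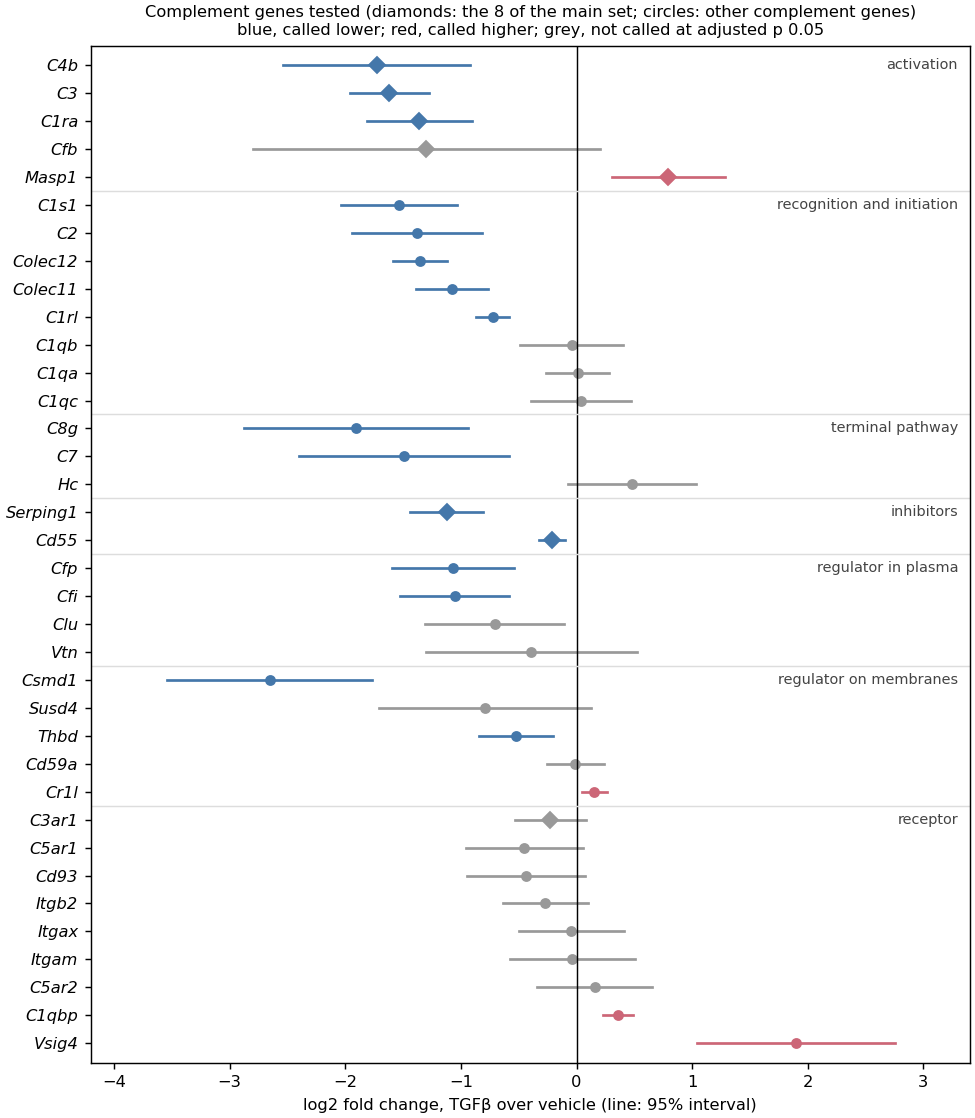
Log2 fold change (TGFβ over vehicle) with its 95% interval for the complement genes tested, grouped by role; diamonds mark the 8 genes described first and circles the 28 others. Most called genes of the activation, recognition, terminal and plasma regulator groups lie left of 0, and most intervals of the receptors cross 0; the higher calls are *Masp1*, *Cr1l*, *C1qbp* and *Vsig4*.

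Markers of other cells that a heart culture can hold were set beside these values. Macrophage and leukocyte markers, 10 of 12 tested, summed to 262 to 376 CPM with vehicle and 224 to 333 CPM with TGFβ, with *Lyz2* the highest. These ranges overlapped. By edgeR 2 of the 10 passed (40.7% of all genes did), and 8 did not, among them *Ptprc* (3.64 and 2.99 CPM) and *Adgre1* (13.4 and 14.9 CPM). *Mrc1* (log2 fold change -1.07) and *Cd14* (-0.75), named here because they were the ones that passed by edgeR, were lower (20.1% of all genes were). With limma-voom the adjusted p of *Cd14* was 0.0558, which misses the threshold. Endothelial markers summed to 462 to 716 CPM and 423 to 586 CPM, which overlapped, with *Cdh5* the highest and *Pecam1* at 109 and 86.1 CPM. Of these, 0 of 8 passed by edgeR (40.7% of all genes did), 0 by DESeq2 and 0 by limma-voom, and 0 had an unadjusted p under 0.05. Mesothelial markers summed to 84.8, 24.8 and 33.8 CPM with vehicle and 44.0, 16.3 and 19.6 CPM with TGFβ. Here the libraries of 31072338 and 27851677 counts were the highest of their groups, unlike in the sums of the endothelial and leukocyte markers. *Upk3b* was the highest mesothelial marker, and *Msln* was at 0.632 and 0.969 CPM. None of the 6 tested passed by edgeR (40.7% of all genes did), DESeq2 or limma-voom (0 in each case). An unadjusted p under 0.05 was found for 1 of them.

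Adipocyte markers, 3 of 8 tested, summed to 369 to 601 CPM and 97.2 to 121 CPM, mostly from *Lpl*, with *Adipoq* near 0 as given above. These sums did not overlap, and all 3 were lower by edgeR (20.1% of all genes were). The sum of the fibroblast markers overlapped between groups. It came mostly from *Col1a1*, *Col1a2* and *Col3a1* (means of 19991.7, 13656.5 and 18279.7 of 58652 CPM with vehicle). Taken singly, the groups did not overlap in 9 of the 10 markers (53.3% of all genes). By edgeR 8 of the 10 were lower (20.1% of all genes were), among them *Pdgfra* (log2 fold change -1.37). *Col1a1* went the other way, with every TGFβ library above every vehicle library (log2 fold change 0.23), and its adjusted p was 0.055 from edgeR, 0.00929 from DESeq2 and 0.0369 from limma-voom. *Col1a2* did not pass by edgeR. The part of any of these cells in the complement values was not tested.

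**Figure D5:**
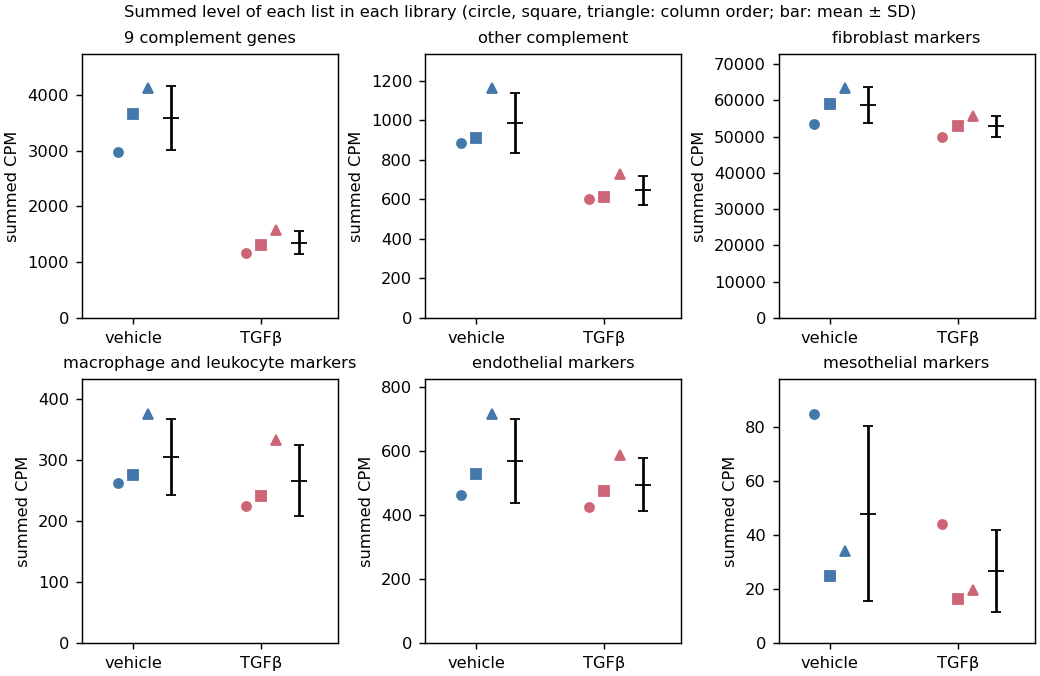
Summed CPM of 6 gene lists in each library (vertical axes from 0; bars, mean ± SD, n = 3). The sums of the 9 complement genes (2977 to 4115 CPM with vehicle, 1160 to 1568 CPM with TGFβ) and of the other complement genes do not overlap between groups, whereas those of the fibroblast, leukocyte, endothelial and mesothelial markers do. The sums of the adipocyte markers, not drawn, do not overlap either (369 to 601 CPM with vehicle, 97.2 to 121 CPM with TGFβ). The sum of the 9 genes is mostly *C3* and *Serping1* (means of 2370 and 996 of 3582 CPM with vehicle).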

How the data were processed

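RNA-seq of polyadenylated mRNA (stranded library kit, single-end reads of 75 bases) was done by the authors in 3 vehicle and 3 TGFβ libraries. The authors aligned reads to mm10 and used DESeq2, as the submitters' processing notes and the study's methods say; the aligner, counting tool, annotation and use of strand are not given in the sources used here. The deposited table holds raw counts of reads per gene as whole numbers, without normalization. Its columns name the group and no replicate number, so libraries are named by group and total count (27851677 to 31072338). It also holds the authors' normalized mean, fold changes and p-values, which were not used. All columns of values per sample were used.

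Counts were fitted with edgeR 4.0.16 in R 4.3.3 (TMM factors, filterByExpr, quasi-likelihood test, no covariate, Benjamini-Hochberg adjustment over 14334 genes, threshold 0.05). Standard errors are the fold change over the square root of F. Single values were compared with two-sided exact permutation tests. Nothing in the labels says that libraries came from separate animals, so p-values measure the spread between these libraries; the methods call them biological replicates. The floor of 3 counts, used for *Cfd*, covers counting error only. Steps were tested on simulated counts in which 200 genes were changed. There edgeR recovered 95% of the changed genes, and 6.86% of its calls were false. DESeq2 also recovered 95%, but 13.2% of its calls were false.

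Gene spans, exon lengths and shared 75-base windows came from GENCODE M21 (GRCm38, 25086 identifiers matched), promoters from RefSeq (GRCm38.p6, 5 of 9 genes matched). Alternatives were DESeq2 size factors, upper quartile scaling, DESeq2 1.42.0, limma-voom (limma 3.58.1), no filter, 1 CPM in 3 libraries, each library left out, an adjusted p of 0.01 and a log2 fold change beyond 1. The genes, lists and tests were chosen with earlier results of these data known; the ratios and the removal of a library from each group at once were added after seeing the values. Named were all 9 genes, the other complement genes that passed, near copies, and, of the marker lists, set genes and the highest of each. Part of the longer complement list was left out of its counts and is not reported here.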

Additional observations from a re-analysis of the deposited data

How the results depend on the processing

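With another scaling, tool or filter or with libraries left out, *C3*, *C4b*, *C1ra*, *Serping1* and *Cd55* stayed lower past the threshold in each of 13 alternatives, and no complement gene that passed changed sign; 4 of the 5 had a log2 fold change beyond 1, *Cd55* did not. With each library left out in turn, log2 fold changes ran from -1.75 to -1.51 for *C3*, from -2.17 to -1.36 for *C4b*, from -1.59 to -1.18 for *C1ra*, from -1.25 to -1.003 for *Serping1*, from -0.24 to -0.18 for *Cd55*, from 0.57 to 0.96 for *Masp1*, from -1.74 to -0.45 for *Cfb* and from -0.35 to -0.13 for *C3ar1*. *Masp1* no longer passed without the vehicle library of 31072338 counts (0.74) or the TGFβ library of 27851677 counts (0.57), and *Cfb* passed without that vehicle library (-1.74); the cause was not tested. *Cfb* was not tested with 1 CPM in 3 libraries as filter or without the libraries of 29331999 and 28641986 counts, where too few libraries reached the filter. The number of the 8 genes that were higher was therefore 0 to 1 over the libraries left out, 0 at an adjusted p of 0.01 and 0 with a log2 fold change beyond 1. Of the other complement genes, 1 was higher with a log2 fold change beyond 1, against 3. Other scalings moved the median of all genes by at most 0.021 on the log2 scale. No paired analysis was possible because the columns of the table carry no replicate numbers, so the planned replicate block was not run. Depth limits *Cfd*, *Cfb*, *C7*, *C8g* and *Vsig4*, with few counts per library, and *Csmd1* and *C2*, with few in the TGFβ libraries.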

Other observations

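Complement genes of the longer list that did not pass, or could not be tested, are given here as values, chosen after they were seen. *Clu*, clusterin, which blocks assembly of the lytic pore, was at 146 ± 49.8 CPM in vehicle libraries and 89.5 ± 23.8 CPM in TGFβ libraries (SD, n = 3 each; log2 fold change -0.71, adjusted p = 0.0622 from edgeR). *Hc*, the gene of C5, had 17, 21 and 22 counts with vehicle and 22, 23 and 32 with TGFβ, with groups that did not overlap in CPM and an adjusted p of 0.15 from edgeR. *Cd59a*, a membrane inhibitor of the lytic pore, differed by -0.01 on the log2 scale (95% interval from -0.26 to 0.24). *C5ar1*, the C5a receptor, was at 6.70 ± 1.61 CPM and 4.88 ± 1.03 CPM (SD, n = 3 each; log2 fold change -0.45, adjusted p = 0.136 from edgeR).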
